A study of Mus musculus with 2 samples.

Results

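The cells described here are the G2 and mitotic cells, called G2/M cells below, among AE9a leukemia cells profiled by single-cell RNA sequencing. They were chosen by their own expression. In every barcode with at least 500 genes and 2% to 10% mitochondrial UMIs (unique molecular identifiers, each standing for 1 captured RNA molecule), 3 scores were computed from summed UMIs per 10000, taken as log1p and z-scored over all of these cells. The M score summed Cenpf, Aspm, Prc1, Ube2c, Plk1, Hmmr, Cdc20 and Ccnb1, the H score 6 late S phase genes (Hist1h1b, Hist1h1a, Hist1h2ap, Hist1h2ae, Rrm2 and Fbxo5) and the E score 7 early S phase genes (Ung, Dtl, Mcm4, Mcm6, Cdc6, Cdt1 and Hells). A cell was a member where M was the highest score and at least 0. This rule took 3463 of 13918 scored cells, out of 15114 deposited barcodes. Members numbered 1815 among the 6573 scored cells labelled Usp18+/f, and 1648 among the 7345 labelled Usp18+/Δ. The remaining cells were put into 3 classes for comparison, namely late S cells (H highest, 1446 and 1578), early S cells (E highest, 2230 and 2278) and low-score cells (all scores below 0, 1082 and 1841).

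The leukemia was made from fetal liver cells of Usp18+/f mice with a tamoxifen-dependent Cre, transduced with the MSCV-IRES-GFP retrovirus carrying AML1-ETO9a (AE9a), a truncated AML1/ETO fusion, and passed to secondary recipients after sub-lethal irradiation. The oil-treated cells carried the Cre too. Recipients were C57BL/6 mice injected with oil (Usp18+/f) or tamoxifen (Usp18+/Δ) once they were sick. Splenocytes that were GFP+ Lin− c-Kit+ were sorted 3 days after the first injection, and cells of 3 mice were pooled for each library, with 8000 cells targeted. The comparison asks what the loss of 1 Usp18 allele does to the leukemia. Tamoxifen, active Cre and the loss of the allele came together in 1 group, so their parts cannot be told apart here. Each group was 1 library, so no difference has a replicate check, no test was run, and every interval below is a 95% interval of counting error only. Where a pair of values is given, the library labelled Usp18+/f comes first, and levels are in CPM (UMIs of a gene per 1000000 UMIs of the same class and library).

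G2 is the gap between DNA replication and mitosis, in which cyclin B accumulates with its kinase Cdk1. Entry into mitosis is switched on when Cdc25 phosphatases remove inhibitory phosphates from Cdk1, and Plk1 and Aurora kinases then drive spindle assembly. Exit follows when the anaphase promoting complex, a ubiquitin ligase activated by Cdc20 and then by Fzr1 (Cdh1), marks securin and cyclin B for destruction. Many genes of this programme peak together in G2 and mitosis. Their promoters are known for a cell cycle homology region (CHR, read by the MuvB complex with B-Myb and FoxM1) and for CCAAT boxes, which NF-Y binds.

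Because the M score genes were chosen to move together, the 150 bases before the RefSeq start (GRCm38.p6, the build of mm10) are shown for 4 of them and for 2 genes outside the score, Cdk1 and Kpna2. Capitals mark TTTGAA or TTTAAA (CHR) and CCAAT, each searched on both strands, so that TTCAAA and ATTGG are the reverse strand of the first and the last. No motif overlaps another in these stretches. Each stretch shown holds a CHR. Those of the M score genes Cenpf, Prc1 and Hmmr, not shown, hold none, nor do those of Cenpe, Nek2 and Ccnb2.
Ccnb1, chr13:100786487-100786636, minus strand: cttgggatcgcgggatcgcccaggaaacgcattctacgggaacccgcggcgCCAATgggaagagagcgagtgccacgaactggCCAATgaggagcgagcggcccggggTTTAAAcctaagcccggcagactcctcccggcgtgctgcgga
Cdc20, chr4:118437344-118437493, minus strand: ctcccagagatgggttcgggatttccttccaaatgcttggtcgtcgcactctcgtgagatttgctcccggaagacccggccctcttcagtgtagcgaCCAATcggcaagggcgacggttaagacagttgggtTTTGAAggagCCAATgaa
Plk1, chr7:122159285-122159434, plus strand: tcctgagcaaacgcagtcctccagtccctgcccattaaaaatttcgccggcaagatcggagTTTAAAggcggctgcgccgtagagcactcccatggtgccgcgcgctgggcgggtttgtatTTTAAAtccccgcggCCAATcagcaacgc
Ube2c, chr2:164769779-164769928, plus strand: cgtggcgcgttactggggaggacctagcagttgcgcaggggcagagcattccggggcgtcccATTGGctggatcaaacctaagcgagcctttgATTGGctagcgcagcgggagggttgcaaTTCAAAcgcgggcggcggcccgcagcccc
Cdk1, chr10:69352913-69353062, minus strand: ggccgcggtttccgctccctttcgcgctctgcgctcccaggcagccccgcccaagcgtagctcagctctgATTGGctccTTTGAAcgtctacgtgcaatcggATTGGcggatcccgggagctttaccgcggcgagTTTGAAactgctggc
Kpna2, chr11:106999526-106999675, minus strand: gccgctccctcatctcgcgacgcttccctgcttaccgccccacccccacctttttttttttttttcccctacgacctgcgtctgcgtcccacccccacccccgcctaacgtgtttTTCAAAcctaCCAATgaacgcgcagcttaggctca

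In whole RefSeq windows, from 250 bases before the start to 50 after it, all 8 M score genes held at least 1 CHR and at least 1 CCAAT, and 6 of the 8 held several CCAAT. Over 27025 genes with a window, taking the first window of each, 27.8% held a CHR, 37.9% a CCAAT and 10.9% both. In Ccnb1 the CHR began 42 bases before the start and the CCAAT at 99 and 67 bases before it, and in Cdc20 the CHR began 18 bases before the start. Among genes of mitosis outside the score, 95 of 113 had a window, of which 51.6% held a CHR, 53.7% a CCAAT and 34.7% both. By form of the CHR, TTTGAA was in 48.4% of these windows against 18.1% of all, and TTTAAA in 9.47% against 13.2%. The genes of early S phase, 20 of 25 with a window, held a CHR in 20%, a CCAAT in 65% and both in 15%. A match is a description of these letters and not of binding.

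The label was checked against its markers, which the rule had used, so their levels are given as a description. Cenpf, a kinetochore protein that accumulates in G2 (ENSMUSG00000026605, chromosome 1, 189640606 to 189688086), stood at 547 and 544 CPM in G2/M cells. It stood at 136 and 130.4 CPM in late S cells, 23.1 and 23.4 CPM in early S cells, and 4.90 and 4.51 CPM in low-score cells. Ccnb1, cyclin B1 (ENSMUSG00000041431, chromosome 13, 100778650 to 100786570), was at 249 and 242 CPM in G2/M cells against 68.8 and 66.3 CPM in late S cells. Plk1, the kinase of mitotic entry, was at 125 and 132 CPM against 41.6 and 46.3 CPM in late S cells, and Aspm, a spindle pole protein, at 202 and 203 CPM against 64.7 and 60.5 CPM. All 4 fell in the same order of classes in both libraries, from G2/M through late S and early S to low-score cells. Ube2c, the ubiquitin-conjugating enzyme of the anaphase promoting complex, was at 920.1 and 795 CPM in G2/M cells, Prc1 of the central spindle at 308 and 288 CPM, Hmmr of the spindle poles at 254 and 264 CPM, and Cdc20 at 198 and 176 CPM.

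**Figure D1:**
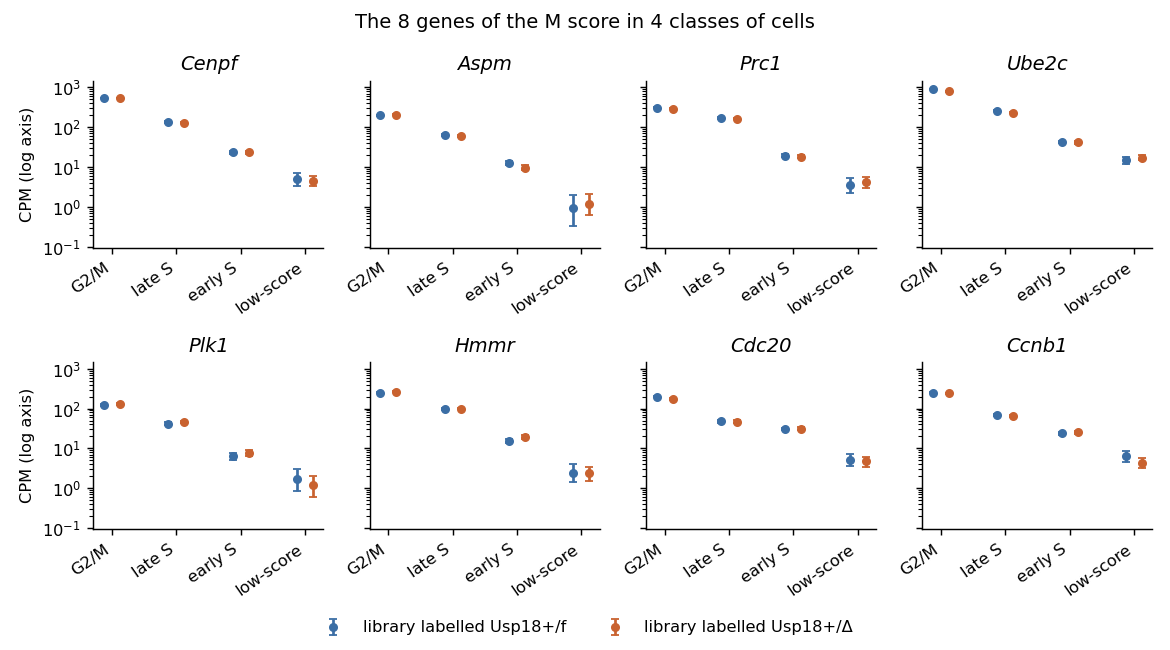
Level of each M score gene (CPM, log axis) in 4 classes of cells, for the library labelled Usp18+/f (blue) and the library labelled Usp18+/Δ (orange), with bars for exact Poisson intervals. In every panel the G2/M cells stand highest and the low-score cells lowest, and these genes chose the cells.

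A median of 7 of the 8 M score genes was detected per member cell in both libraries, and all 8 in 43.3% and 42.2% of members, against 5.95% and 4.37% of late S cells. After thinning every cell to 3000 UMIs and scoring again, Ube2c had a UMI in 80.9% (79.1 to 82.6) and 77.6% (75.6 to 79.5) of members, and Plk1 in 26.6% and 26.7%. Thinned cells are scored by the same genes, so low-score cells held no UMI of any M score gene by construction. Cdk1, outside the score, had a UMI in 48.0% and 39.7% of thinned members, 35.9% and 33.4% of late S cells, and 2.46% and 1.57% of low-score cells. Cenpa, the histone variant of centromeres, had a UMI in 73.1% and 69.1% of members and still in 16.7% and 15.2% of low-score cells. Across members of 1 library, which share its depth scaling, log levels of M score genes correlated least for Cdc20. Members were chosen on the sum of these genes, which limits their range. The 7 pairs that include Cdc20 had Pearson r from 0.04 to 0.12 over 1815 cells and from 0.04 to 0.10 over 1648, and the 21 other pairs ran from 0.17 to 0.52 and from 0.21 to 0.56.

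The boundary lay mainly against late S. In 2385 members H was the next score and in 1078 it was E, and 716 members had H of at least 1. Within 0.1 of the next score lay 238 members, or 6.87%, with 212 cells at the same distance outside. The 100 members just inside had a median M of 1.13 and H of 1.11, and the 100 cells just outside 1.11 and 1.13. Median summed UMIs of the M score genes were 21 inside and 19 outside, values that the choice of these cells brings near each other. The class is cut from a score and is a range of it, not a type.

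G2/M cells were the deepest class. The median was 11832 and 11157.5 UMIs per cell, against 10474 and 9905 in late S, 8263.5 and 7946 in early S, and 5916 and 5352 in low-score cells. Relative to all other cells of their library, members had 1.44 and 1.46 times the median UMIs and 1.26 and 1.28 times the median genes. Median mitochondrial shares were 6.12% and 6.29%. No doublets were removed. The automatic threshold of Scrublet marked under 0.1% of cells and did not work. Cells above the 95th percentile of its score made up 6.56% and 6.80% of members against 3.43% and 3.598% of other cells. Without these cells the ratio of median UMIs, as the mean of both libraries, was 1.44 against 1.45 with them. The part of doublets that this score misses was not tested. The 2 libraries shared 15 barcode sequences, and no such barcode was a member in both.

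Markers of neutrophils, B cells and macrophages were at or near 0 in members, while erythroid and mast cell genes were not. The 7 neutrophil markers summed to 0.278 and 0.858 CPM, with 5 and 2 of them at 0 UMIs, and the 5 B cell markers to 0.139 and 0.590 CPM, with 3 at 0 in each library. The 7 macrophage markers summed to 1.25 and 4.13 CPM, with 2 and 0 at 0 UMIs, and the 6 T or NK cell markers to 6.43 and 12.1 CPM, nearly all of it Nkg7. The 5 erythroid markers summed to 2903 and 2245 CPM in members, 3007 and 2243 CPM in late S cells, 2406 and 2027 CPM in early S cells and 8978 and 9223 CPM in low-score cells. The 5 mast cell or basophil markers summed to 736 and 761 CPM in members and to 1635 and 2025 CPM in low-score cells. Kit, which the sort used, was at 98.3 and 95.5 CPM, and Cd34, a progenitor surface marker, at 4.35 and 10.2 CPM.

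Genes of mitosis outside the rule were then described by role, from 11 lists of 113 genes. Cells were grouped by genes that rise with these, so the contrast of G2/M cells with other cells is a description and carries no test. Of 112 genes averaging at least 5 CPM over all cells, 75 were at least 1.5-fold higher in G2/M cells than in all other cells in both libraries and 0 were as much lower. Their median log2 ratios were 1.16 and 1.19. Of all 8880 genes at this level, 225 or 2.53% were as much higher and 218 or 2.45% as much lower, with medians of -0.01 and 0.00. Against late S cells, the nearest class, 31 of the 112 were at least 1.5-fold higher and 3 lower in both libraries. The shares over all genes were 1.68% (149 genes) and 1.97% (175 genes).

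Of 9 genes of the cyclin B switch, 7 were at least 1.5-fold higher in G2/M than in late S cells in both libraries. Cdk1 was at 290 and 253 CPM in G2/M cells and at 158 and 140 CPM in late S cells. Ccna2, cyclin A2, which acts from S phase to early mitosis, was at 190 and 168 CPM against 102 and 92.1 CPM. Ccnb2, the other main B-type cyclin, was at 183 and 165 CPM against 54.8 and 52.3 CPM in late S cells, and at 86.9 and 87.9 CPM in early S cells. Ccnb2 was thus higher in early S than in late S cells in both libraries. The only other genes of the 112 with that order were Pttg1 and 4 subunits of the anaphase promoting complex. Cdc25b, which activates Cdk1 at mitotic entry, was at 214 and 198 CPM against 85.3 and 84.4 CPM in late S cells, and Cdc25c at 23.6 and 23.9 CPM against 8.08 and 7.56 CPM. The Cdk1 subunits Cks2 and Cks1b were 0.90 and 0.87, and 0.69 and 0.61, log2 units above late S. The inhibitory kinase Wee1 differed little from late S (0.02 and 0.03), and its relative Pkmyt1 was at 20.5 and 22.7 CPM, 0.59 and 0.49 log2 units below late S.

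Mitotic kinases ranged from above late S to below it. Aurka, which matures centrosomes, was at 80.7 and 83.6 CPM in G2/M cells against 40.2 and 37.7 CPM in late S cells. Nek2, a kinase of centrosome separation, was at 70.7 and 66.8 CPM against 24.9 and 22.6 CPM. Aurkb, the kinase of the chromosomal passenger complex, was at 110 and 107 CPM against 105 and 99.5 CPM, log2 ratios of only 0.06 and 0.11. Its partners Birc5 (353 and 335 CPM) and Cdca8 (299 and 296 CPM) were 0.54 and 0.62, and 0.71 and 0.74, log2 units above late S, and Incenp 0.16 and 0.22. Bora, an activator of Aurora A, was 0.40 and 0.47 above late S, and Pbk 0.61 and 0.52 below it.

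Among regulators of the programme, Foxm1 was at 29.8 and 29.3 CPM in G2/M cells and at 29.5 and 27.3 CPM in late S cells, and Mybl2, which encodes B-Myb, at 19.1 and 23.4 CPM against 60.8 and 66.9 CPM. Of the 10 genes of FoxM1, MuvB and NF-Y, only Foxm1 was at least 1.5-fold above all other cells, and Mybl2 alone was as far below late S. The MuvB subunits Lin9 and Rbbp4 were 0.17 and 0.17, and 0.51 and 0.45, log2 units below late S, and the NF-Y subunits Nfya and Nfyb 0.48 and 0.64, and 0.10 and 0.18, below it.

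Kinetochore genes ranged from well above late S to slightly below it. Cenpa was at 561 and 503 CPM in G2/M cells against 156 and 135 CPM in late S and 135 and 132 CPM in early S cells. Cenpe, the kinesin that carries chromosomes to the spindle equator, was at 277 and 277 CPM against 121 and 107 CPM in late S, and Knstrn, an adaptor between spindle and kinetochore, at 125 and 119 CPM against 48.4 and 42.2 CPM. Spc24 of the Ndc80 complex stayed near its late S level, at 157 and 151 CPM against 159 and 149 CPM. Cenpm and Zwint were 0.18 and 0.18, and 0.10 and 0.14, log2 units below late S. Knl1, the scaffold of the checkpoint, was 0.26 and 0.30 log2 units above late S. The checkpoint genes Bub3 (286 and 260 CPM), Bub1b (136 and 128 CPM), Bub1 (49.1 and 44.7 CPM) and Mad2l1 (88.5 and 80.6 CPM) were 0.77 and 0.70, 0.80 and 0.80, 0.76 and 0.64, and 0.40 and 0.20 log2 units above late S.

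All 20 kinesin and spindle genes were at least 1.5-fold above other cells in both libraries, and 10 of them were as far above late S. Tpx2, the activator of Aurora A on spindle microtubules, was at 256 and 268 CPM against 136 and 144 CPM in late S cells, and Nusap1, which bundles microtubules, at 222 and 218 CPM against 120.3 and 112 CPM. Kif11, the motor that pushes spindle poles apart, was 0.32 and 0.33 log2 units above late S, and Kif20b 0.56 and 0.49. Cytokinesis genes gave 8 of 8 above other cells and 5 above late S. Racgap1 of centralspindlin was at 225 and 218 CPM against 129 and 122 CPM, and its partner Kif23 at 124 and 128 CPM against 74.6 and 77.3 CPM. Cit and Anln, a kinase and a scaffold of the contractile ring, were near late S, with log2 ratios of 0.24 and 0.21, and 0.12 and 0.03.

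Chromosome condensation genes did not separate G2/M from late S. Of 10 genes of condensin, topoisomerase and the chromosome surface, 7 were at least 1.5-fold above other cells, but 0 were as far above late S and 1 was below it. Top2a, which untangles sister DNA, was at 647 and 688 CPM in G2/M cells and at 622 and 636 CPM in late S cells. Mki67, a coat protein of mitotic chromosomes widely used as a proliferation marker, was at 848 and 858 CPM against 798 and 785 CPM. The shared condensin subunits Smc2 and Smc4 were 0.05 and 0.09, and 0.22 and 0.24, log2 units above late S. Ncapg2 of condensin II ran the other way, at 52.1 and 56.0 CPM against 156 and 149 CPM.

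Cohesin and the anaphase promoting complex were mostly level with late S. Of 10 genes of cohesion, 4 were at least 1.5-fold above other cells, 0 were as far above late S and 1 was as far below it. Rad21, the cohesin subunit cleaved at anaphase, was 0.50 and 0.49 log2 units above late S, Smc1a 0.08 and 0.16, Wapl 0.01 and 0.01 below it and Smc3 0.45 and 0.36 below it. Of 16 genes of the anaphase promoting complex, Ube2s, Fzr1 and Cdc27 were at least 1.5-fold above other cells and above late S in both libraries. Fzr1, its late activator, was at 77.4 and 73.2 CPM in G2/M cells, 28.7 and 31.2 CPM in late S cells and 17.9 and 19.3 CPM in early S cells. Ube2s, which extends its ubiquitin chains, was at 464 and 415 CPM against 295 and 275 CPM in late S, and Cdc27, a core subunit, at 36.2 and 37.6 CPM against 23.5 and 24.3 CPM. The subunits Anapc5, Anapc11 and Anapc16 had log2 ratios to late S of 0.02 and -0.07, -0.17 and -0.10, and 0.24 and 0.26. Over the 112 genes, 11 were at least 1 log2 unit above late S in both libraries, and these were Ccnb2, Cdc25b, Cdc25c, Aurka, Nek2, Cenpa, Cenpe, Knstrn, Ckap2, Ckap5 and Fzr1.

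**Figure D2:**
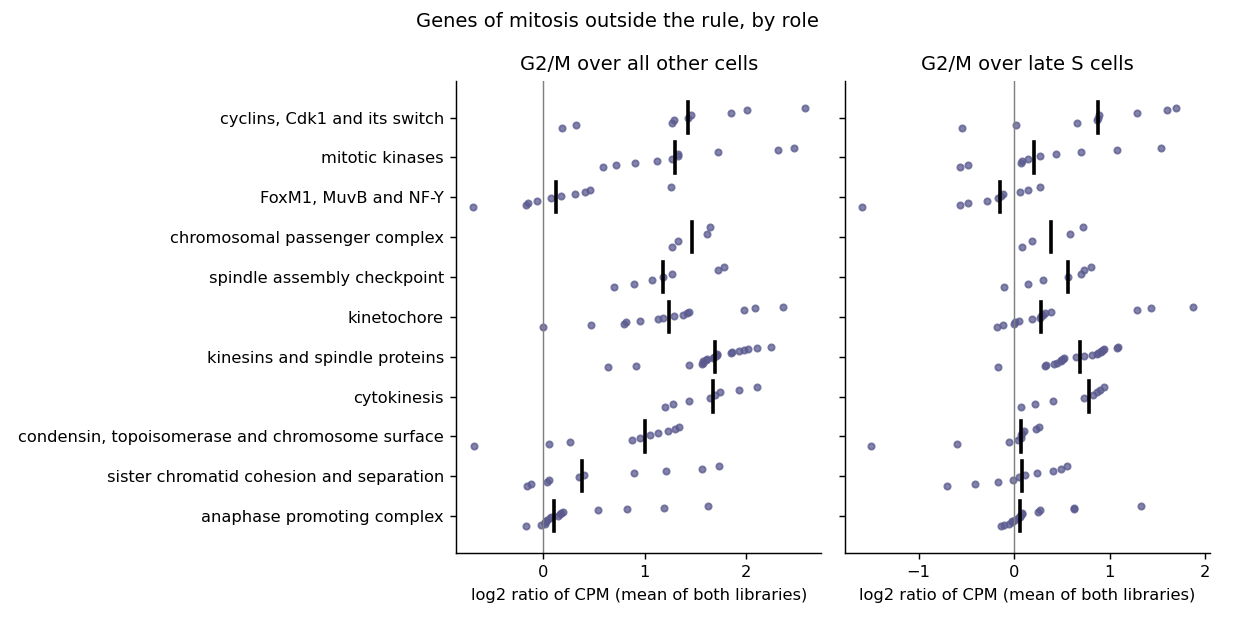
Genes of mitosis outside the rule by role, 1 point per gene averaging at least 5 CPM. The left panel gives the log2 ratio of CPM in G2/M cells over all other cells, the right panel over late S cells, each as the mean of both libraries, and black bars mark the median of each role. The medians of kinesin, cytokinesis and cyclin genes lie to the right of 0 in both panels, with single genes such as Pkmyt1 and Kif15 below late S, while the medians of condensin, cohesion and the anaphase promoting complex sit near 0 against late S.

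Among genes outside the rule with a mean of at least 20 CPM in members, the 10 highest over other cells, ranked by the ratio nearer 0 of both libraries, were Prr11, Pif1, Cdc25c, Nek2, Kpna2, Troap, Parpbp, Cenpe, Sapcd2 and Pimreg. Prr11 was at 40.9 and 36.4 CPM in members against 13.6 and 11.0 CPM in late S and 0.613 and 0.392 CPM in low-score cells. Pif1, a DNA helicase, was at 27.3 and 27.7 CPM against 9.81 and 9.00 CPM in late S, and Kpna2, an importin that also binds spindle factors, at 64.1 and 60.4 CPM against 23.3 and 20.1 CPM. The other members of the 10 not yet given were Troap at 37.5 and 38.5 CPM, Parpbp at 24.0 and 24.2 CPM, Sapcd2 at 37.6 and 36.5 CPM, and Pimreg at 106 and 101 CPM.

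Among the 10 lowest over other cells were Mcpt2, Cpa3, Neat1, Mcpt1, Uhrf1, Rfc3, Gins2, Rpa2 and Jund. The mast cell proteases Mcpt2, Mcpt1 and Cpa3 were at 44.9 and 18.4 CPM, 103 and 30.4 CPM, and 50.1 and 68.5 CPM in members, and at 489 and 242 CPM, 823 and 293 CPM, and 445 and 720.0 CPM in low-score cells. Neat1, a nuclear noncoding RNA, was at 158 and 172 CPM against 919 and 1035 CPM in low-score cells, and Jund, an AP-1 transcription factor, at 153 and 116 CPM against 527 and 368 CPM. Against late S the log2 ratios of these 5 lay between -0.52 and -0.03. The replication and repair genes differed from both S classes. Uhrf1, which keeps DNA methylation at the fork, was at 39.1 and 40.01 CPM in members against 116 and 128 CPM in late S cells and 99.9 and 102 CPM in early S cells. Rfc3, Gins2 and Rpa2 were between 1.20 and 1.39 log2 units below late S in both libraries.

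Genes of DNA replication were lower in members than in late S cells. Of 18 early S genes outside the rule, 11 were at least 1.5-fold lower than in other cells and 17 lower than in late S cells, in both libraries, and 0 were as much higher. Mcm3 and Mcm5, subunits of the replicative helicase, were at 179 and 200.3 CPM, and 107 and 122 CPM, against 320.4 and 363 CPM, and 199 and 211 CPM, in late S cells. Slbp, which binds histone mRNA, was at 115 and 107 CPM against 232 and 229.5 CPM. Late S genes were lower than in late S cells for 5 of 12 and higher for 0. Hist1h1e, a linker histone, was at 189 and 219 CPM in members, 424 and 479 CPM in late S cells and 83.9 and 86.2 CPM in early S cells. Atad2, Rrm1 and Dut were 1.33 and 1.28, 0.53 and 0.42, and 0.50 and 0.48 log2 units below late S. Clustered histone genes are near copies of each other, so their single levels are uncertain.

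Of 10 genes of the nuclear lamina and chromatin, 3 were at least 1.5-fold above other cells and 1, H2afx, above late S, in both libraries. Hmgb2, an abundant chromatin protein, was at 4717 and 3929 CPM in members against 3556 and 2894 CPM in late S and 1345 and 1129 CPM in low-score cells. H2afz, Tmpo and Cbx5 were within 0.25 log2 units of late S in both libraries. Among tubulins, Tubb4b was at 746 and 740 CPM against 428 and 434 CPM in late S cells, while Tubb5 and Tuba1b differed from late S by less than 0.05 log2 units. The microtubule destabiliser Stmn1 was 0.32 and 0.34 log2 units below late S. Of 11 measured G1 cyclins, kinases and inhibitors, 0 were 1.5-fold higher and 0 lower than in other cells. Cyclin D2 (Ccnd2, 351 and 353 CPM), Ccnd3 (105 and 103 CPM), Cdk6 (207 and 211 CPM) and Cdk4 (148 and 146 CPM) stayed within 0.20 log2 units of the other cells.

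Of 11 measured genes of the G2 damage checkpoint, 1 (Cdc25c) was at least 1.5-fold higher than in other cells and 1 lower in both libraries. Rprm, an inhibitor of cyclin B and Cdk1, was at 152 and 145 CPM against 97.8 and 84.4 CPM in late S cells, and at 162 and 148 CPM in low-score cells. Topbp1 and Atr, which start the damage response, were 0.35 and 0.40, and 0.23 and 0.09, log2 units below late S. Of 4 measured immediate early genes, 3 were at least 1.5-fold below all other cells in both libraries, but 0 were as far below late S. The list of 8 summed to 190.3 and 152 CPM in members and to 206 and 159 CPM in late S cells. Fosb was at 28.2 and 16.1 CPM, Jun at 8.74 and 7.03 CPM, Junb at 53.3 and 47.8 CPM and Ier2 at 92.5 and 75.8 CPM. Another list held lineage genes of the leukemia cells, among them erythroid and mast cell genes and the progenitor marker Cd34. Of its 14 measured genes, 4 (Mcpt1, Mcpt2, Cpa3 and Cd34) were at least 1.5-fold below other cells and 0 above in both libraries. Against late S, 0 were as far below. As far below low-score cells were 7 of the 14, against 962 of all 8880 genes. The list of 16 summed to 4597 and 4524 CPM in members, 4639 and 4455 CPM in late S cells, 4758 and 4629.6 CPM in early S cells and 8185 and 8273 CPM in low-score cells. Car1 and Car2, carbonic anhydrases, were at 1858 and 1929 CPM, and 634 and 599 CPM, and Ms4a2, the beta chain of the IgE receptor, at 522 and 499 CPM.

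Members were also spread along the M score. They were cut into 4 bins of M over both libraries, which gave 410, 445, 473 and 487 cells and 456, 420, 393 and 379 cells from the lowest to the highest bin. The lowest bin had a median of 7928 and 7730 UMIs per cell, and the others between 11549 and 13103. Cdk1 went from 93.4 and 94.5 CPM in the lowest bin to 386 and 358 CPM in the highest, and Aurka from 24.9 and 30.1 CPM to 119 and 123 CPM. Top2a went from 192 and 277 CPM to 886 and 936 CPM, and Fzr1 from 33.3 and 39.2 CPM to 112 and 105 CPM. Ccnb2 and Cenpa were already high in the lowest bin. Ccnb2 stood at 179 and 146 CPM in the lowest and 210.2 and 201 CPM in the highest bin, and Cenpa at 442 and 381 CPM and at 677 and 630 CPM. Mcm6, an E score gene, went from 139 and 134 CPM to 92.4 and 88.1 CPM, and Hist1h1b, an H score gene, from 121 and 187 CPM to 569 and 717 CPM. Cdkn1a, the p21 inhibitor of cyclin-dependent kinases, was at 32.1 and 75.1 CPM in the lowest bin and at 17.5 and 42.9 CPM in the highest. Depth moved with the bins, and its part in these values was not tested.

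**Figure D3:**
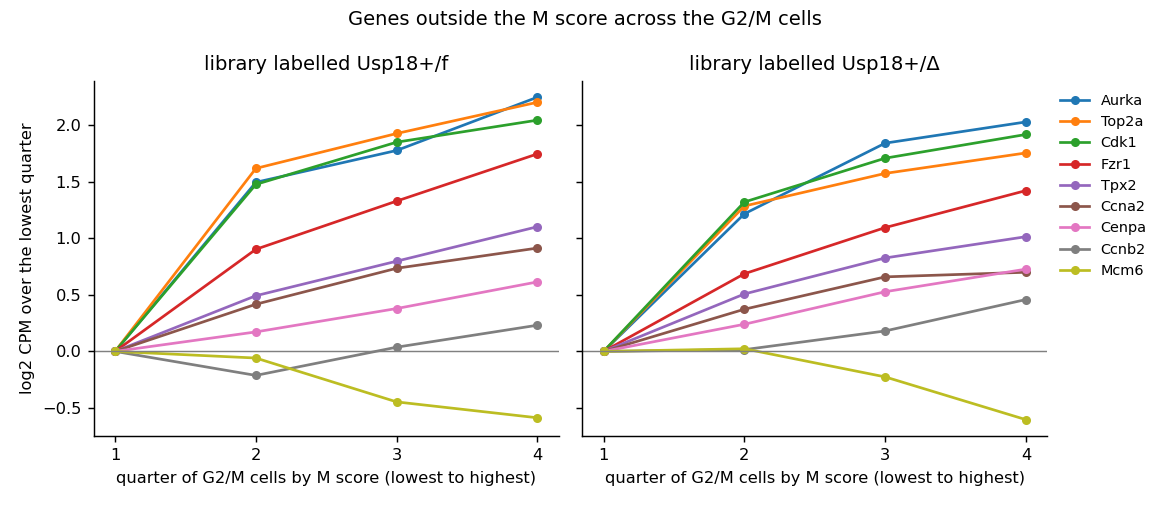
Log2 CPM of 9 genes outside the M score in each of 4 bins of G2/M cells by M score, relative to the lowest bin, for the library labelled Usp18+/f (left) and the library labelled Usp18+/Δ (right). Aurka, Top2a and Cdk1 climb most, Ccnb2 changes least among the mitotic genes drawn, and Mcm6 of the E score goes down.

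G2/M cells were a smaller share of the library labelled Usp18+/Δ. At full depth the share was 27.6% (26.5 to 28.7) and 22.4% (21.5 to 23.4), which as a log2 ratio is -0.30 (-0.38 to -0.22). At 3000 UMIs per cell, which left out 153 and 296 cells, it was 30.0% (28.8 to 31.1), or 1923 of 6420 cells, and 25.9% (24.9 to 27.0), or 1828 of 7049 cells, and the log2 ratio was -0.21 (-0.29 to -0.13). With at most 5% mitochondrial UMIs it was -0.72 (-1.01 to -0.43). Late S shares at 3000 UMIs were 22.0% and 21.4%, with a ratio of -0.04 (-0.13 to 0.05), and early S shares 31.0% and 29.2%. The low-score share was 17.1% and 23.5%, a ratio of 0.46 (0.36 to 0.56). The E, H and M scores share 1 scale over both libraries, and with z-scores taken within each library, which sets both libraries to the same mean, the G2/M ratio became 0.03 (-0.06 to 0.11). Whether mice or libraries of 1 group differ as much cannot be told from 1 library each, and the sort on c-Kit can also set these shares.

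**Figure D4:**
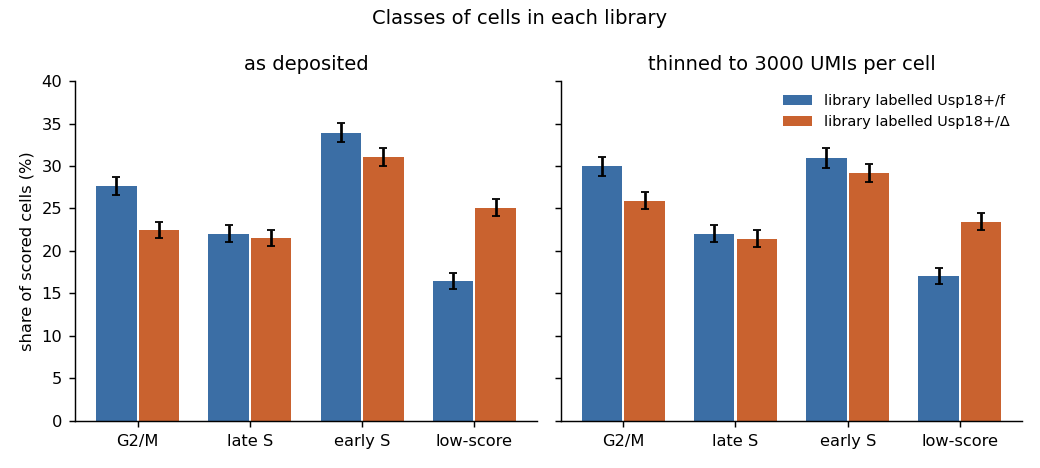
Share of scored cells (%) in each class for the library labelled Usp18+/f (blue) and the library labelled Usp18+/Δ (orange), at full depth (left) and with every cell thinned to 3000 UMIs (right), with bars for exact binomial intervals. G2/M cells are a smaller share and low-score cells a larger share of the library labelled Usp18+/Δ in both panels, and the late S intervals overlap.

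Usp18, the targeted gene, was higher and not lower in the library labelled Usp18+/Δ. It encodes a protease that takes ISG15 off proteins and restrains interferon receptor signaling, and is itself induced by interferon (ENSMUSG00000030107, chromosome 6, 121245906 to 121270917). It had 133 UMIs or 6.15 CPM (5.15 to 7.29) in members of the library labelled Usp18+/f. In the library labelled Usp18+/Δ the members had 399 UMIs or 21.4 CPM (19.4 to 23.6). On the log2 scale the libraries differed by 1.80 (1.51 to 2.09) in members and by 2.20 in all other cells. Transcripts of a floxed allele after deletion and of an intact allele are counted together here, and the deleted exons are not given in the sources used here, so these counts do not check the labels. Every direction below takes the labels as given. With at most 5% mitochondrial UMIs the ratio was 1.34 (0.39 to 2.32).

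Interferon-stimulated genes (ISGs) were higher in the G2/M cells of the library labelled Usp18+/Δ. Of 29 ISGs averaging at least 5 CPM in members, 29 were higher, 28 with an interval above 0 and 25 by at least 1.5-fold, with a median log2 ratio of 0.97. Over all 8796 genes at this level, 76 or 0.864% were as much higher and 21 or 0.239% as much lower, with a median of 0.01. This list and the p53 list below were chosen with earlier results of these data known, so their counts are a description. Isg15, the ubiquitin-like modifier (ENSMUSG00000035692, chromosome 4, 156199424 to 156200818), was at 18.0 CPM (16.3 to 19.9) and 84.7 CPM (80.6 to 89.0), a ratio of 2.23 (2.07 to 2.40). Oas3, a sensor of double-stranded RNA, was at 13.0 and 43.2 CPM, Rnf213 at 37.7 and 98.5 CPM, Samd9l at 18.9 and 43.8 CPM and Parp9 at 32.2 and 68.2 CPM. Bst2, which tethers virions, was at 131 and 249 CPM, Lgals3bp at 55.0 and 95.7 CPM, Parp14 at 72.7 and 110 CPM and Ifi27 at 198 and 237 CPM. At 3000 UMIs Isg15 had a UMI in 5.82% (4.82 to 6.97) and 17.5% (15.7 to 19.3) of members, so most members had none at this depth.

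The same list had medians of 0.96 in late S, 0.90 in early S and 1.13 in low-score cells. Members were not the cells with the highest ISG levels. In low-score cells Isg15 was at 37.7 and 261 CPM and Usp18 at 8.42 and 38.2 CPM, and 24 and 27 of the 29 ISGs were highest in that class. The ratio of Isg15 was lower in members than in other cells by 0.24 (0.05 to 0.42), and that of Usp18 by 0.40 (0.05 to 0.75), while that of Bst2 was higher by 0.10 (0.02 to 0.19) and that of Eif2ak2, the RNA-activated kinase PKR, by 0.14 (0.001 to 0.27). The whole list summed to 918 and 1702 CPM in members, 935 and 1588 CPM in late S cells and 1332 and 2859 CPM in low-score cells. Macrophage markers moved with the library, at 1.25 and 4.13 CPM in members, and their part in these values was not tested.

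Among p53 targets, 15 of 17 measured genes were higher in members of the library labelled Usp18+/Δ, 14 with an interval above 0 and 5 by at least 1.5-fold, with a median of 0.39. Of all 8796 genes at this level, 4744 were higher, 1231 with an interval above 0 and 76 (0.864%) by at least 1.5-fold. Cdkn1a (ENSMUSG00000023067, chromosome 17, 29090976 to 29100727) was at 19.2 CPM (17.3 to 21.1) and 51.9 CPM (48.7 to 55.3), a ratio of 1.44 (1.27 to 1.61). Ccng1, cyclin G1, was at 55.7 and 91.9 CPM, Phlda3 at 102 and 127 CPM, the apoptosis gene Bax at 223 and 258 CPM and Rps27l at 556 and 605 CPM. In low-score cells Cdkn1a was at 22.5 and 122 CPM, a ratio of 2.44, and at 3000 UMIs it had a UMI in 5.67% and 12.0% of members. The list median was 0.27 in late S, 0.23 in early S and 0.67 in low-score cells.

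**Figure D5:**
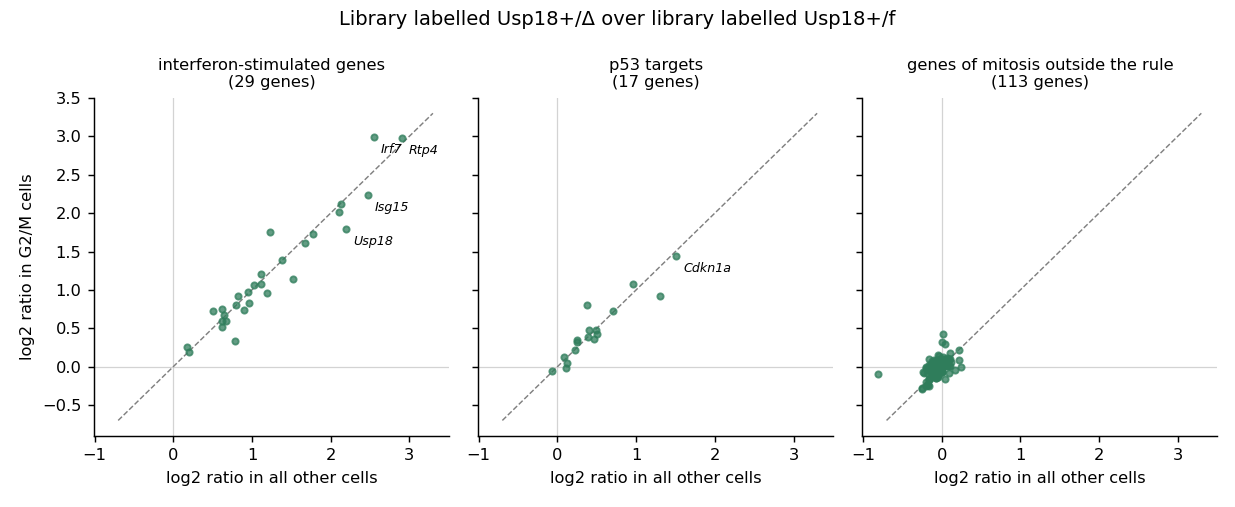
Log2 ratio of CPM between the libraries, that labelled Usp18+/Δ over that labelled Usp18+/f, in all other cells (horizontal axis) and in G2/M cells (vertical axis), 1 point per gene averaging at least 5 CPM in G2/M cells. The dashed line marks equal ratios. The 29 interferon-stimulated genes lie above 0 and near the line, most of the 17 p53 targets lie above 0, and the 113 genes of mitosis gather around 0.

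Few genes passed 1.5-fold between the libraries at a level where counting error is small. Of 5965 genes averaging at least 20 CPM in members, 25 or 0.419% were higher and 10 or 0.168% lower by at least 1.5-fold, and 94.97% lay within 0.25 log2 units of 0. With at most 5% mitochondrial UMIs the counts were 100 higher and 102 lower. That limit keeps a small part of the members, whose 10th percentile of mitochondrial share was 4.72% and 5.12%, so counting error is larger there. The 25 comprised 16 ISGs of the list, the p53 targets Cdkn1a and Ccng1, and 7 genes on neither list. The ISG list of 39 genes is not complete, so a gene outside it may still be induced by interferon. Cyp11a1, a mitochondrial enzyme of steroid synthesis, was at 112 and 255 CPM, a ratio of 1.19 (1.12 to 1.26), and Ifi27l2a at 99.4 and 232 CPM, a ratio of 1.22 (1.15 to 1.30). All 25 were also higher in the other cells, 23 of them by at least 1.5-fold. The difference of the ratio between members and other cells had an interval off 0 for 7 of the 25, 3 above and 4 below.

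The largest falls were in the inducible heat shock genes. Hspa1a and Hspa1b, near-identical neighbours whose reads may be split between them, stood at 38.9 and 5.79 CPM and at 146 and 36.04 CPM. Summed, they were at 185 and 41.8 CPM, a ratio of -2.14 (-2.26 to -2.03). Of 8 measured heat shock genes, 5 were lower, 3 with an interval below 0, and the median was -0.05. Of all 8796 genes, 4052 were lower, 1088 with an interval below 0. The 4 with the most UMIs in members, Hsp90aa1 (2405 and 2386 CPM), Hspa8 (1505 and 1509 CPM), Hspe1 (864 and 907 CPM) and Hspd1 (433 and 499 CPM), had ratios of -0.01, 0.00, 0.07 and 0.20. Mcpt1 and Mcpt2 had ratios of -1.76 (-1.90 to -1.63) and -1.29 (-1.47 to -1.11) in members and of -1.16 and -0.82 in other cells. The remaining falls named were Fosb at -0.81, the histone gene Hist1h2ap, which the rule used in the H score, at -0.76 (256 and 152 CPM), the receptor Notch2 at -0.76 (56.2 and 33.3 CPM) and the zinc transporter Slc39a1 at -0.68 (30.9 and 19.3 CPM). All 10 genes that fell were also lower in the other cells.

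Levels of mitotic genes inside the class are bounded by the rule, which took cells of both libraries at 1 scale of M, so their library ratios are given as a description. Of 113 genes of mitosis outside the rule averaging at least 5 CPM in members, 54 were higher and 59 lower, 0 by 1.5-fold in either direction, with ratios from -0.30 to 0.42 and a median of 0.00. The 9 cyclin and Cdk1 switch genes had the lowest median of any role, -0.15, with 6 intervals below 0, against 1088 of the 8796 genes. Cks1b was at 520 and 427 CPM, a ratio of -0.28 (-0.32 to -0.24), Cks2 at 1023 and 860.0 CPM, -0.25 (-0.28 to -0.22), Cdk1 -0.20 (-0.25 to -0.14) and Ccna2 -0.18 (-0.24 to -0.11). Of the M score genes, Ube2c (-0.21, interval -0.24 to -0.18), Cdc20 (-0.18, interval -0.24 to -0.11) and Prc1 (-0.09, interval -0.15 to -0.04) were lower, Hmmr was higher (0.06, interval 0.002 to 0.11), and the intervals of Cenpf, Aspm, Plk1 and Ccnb1 held 0. Hmgb2 and H2afz went the same way as Cks2, with ratios of -0.26 and -0.17. The median M score of members was 1.42 and 1.37, and the part of this difference in the ratios was not tested.

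A few genes had a different library ratio in members than in other cells. Psrc1, a microtubule protein, was at 64.1 and 68.1 CPM in members, a ratio of 0.09, and at 9.95 and 43.1 CPM in low-score cells, so that its ratio in all other cells was 0.84. Its difference between members and other cells was -0.75 (-0.91 to -0.58). The erythroid gene Hba-a2 had ratios of -0.37 and 0.11, the chymase gene Cma1 -0.25 and 0.27, and Mcpt1 the values above. In the other direction stood Rrm2 (51.4 and 64.3 CPM, ratios of 0.32 in members and 0.02 in other cells), an H score gene whose values the rule used, as well as Mcm5 (0.19 and -0.08), BC003965 (0.18 and -0.08) and Ncapg2 (0.10 and -0.16). These differences compare the same 2 libraries and were not tested.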

How the data were processed

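Per the labels, libraries were made with 10x Genomics 3′ V3 chemistry. The authors used Cell Ranger 3.0.2 and mm10. Deposited values are UMI counts for each gene and barcode, without normalization. The library totals were 63690481 and 65146263 UMIs over 7281 and 7833 barcodes, with medians of 8440 and 7926 UMIs per barcode. The authors' later filters were not used here.

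Cells were kept and scored as described above, and doublets were left in. UMIs were summed over the cells of a class and library and scaled to CPM. With 1 library per group no test was possible. Sums carry exact Poisson intervals, shares Clopper-Pearson intervals, ratios of sums exact conditional intervals, ratios of shares score intervals and differences of ratios delta-method intervals, all 95% and for counting error only. A count of 0 UMIs in members allows up to 3 UMIs, or 0.139 and 0.161 CPM. To compare shares, cells were thinned to 3000 UMIs (seed 1) and scored again. Functions were tested on simulated data.

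The members and lists were chosen with earlier results of these data known. Named genes were the 8 M score genes, the 4 genes of each list with the highest mean CPM in members, the 10 highest and 10 lowest over other cells and the 8 largest rises and falls between libraries (at least 20 CPM), the 4 genes on each side whose library ratio differed most between members and other cells (at least 50 CPM), and Usp18, Isg15, Cdkn1a, Hspa1a, Hspa1b, Cd34 and Kit. Other genes named were chosen after their values were seen. A gene among the 10 lowest is not reported here. Lists were measured at a mean of at least 5 CPM, over all cells for classes and over members for libraries. Alternatives varied the cell filter, doublets, the rule, thinning, scaling and low-count filters. Coordinates are from GENCODE vM21, to which 31011 of 31053 genes matched by identifier. Tools were Python 3.11.15, numpy 2.4.6, scipy 1.17.1, pandas 2.3.3 and scanpy 1.11.5.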

Additional observations from a re-analysis of the deposited data

Results flagged for a closer look

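In 7 named genes the library ratio (log2, library labelled Usp18+/Δ over library labelled Usp18+/f) had opposite signs in G2/M cells and in all other cells, with both counting intervals off 0. In each, 1 library stands on each side and the difference was not tested against the spread between mice. Hbb-bt, a beta globin gene, had -0.046 in G2/M cells and 0.37 in other cells, Hba-a2, an alpha globin gene, -0.37 and 0.11, and the chymase gene Cma1 -0.25 and 0.27. The replication gene Mcm5 had 0.19 and -0.085, Top2a 0.089 and -0.061, the cohesin gene Smc3 0.079 and -0.067, and BC003965 0.18 and -0.077. Haemoglobin genes in all summed to 3203 and 2554 CPM in members, and to 10774 and 11550 CPM in low-score cells, whose share also differed between the libraries, and the part of that share in these ratios was not tested.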

How the results depend on the processing

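No paired analysis was possible because there is 1 library in a group, and the groups share fewer than 2 replicate numbers. The share of G2/M cells (log2 ratio of libraries, -0.21) changed sign with z-scores within each library (0.025), a setting that removes a difference in mean score by construction. It was -0.72 with at most 5% mitochondrial UMIs, -0.30 without thinning and -0.31 at 1500 UMIs. The limit of 5% keeps a small part of the cells, so its values carry a larger counting error. The 5% limit also gave 1.34 for Usp18, 0.85 for the ISG median, 0.30 for the p53 median, 100 genes higher and 102 lower past 1.5-fold, 1.86 for the ratio of median UMIs (1.45 in all) and 1.06 for the median of mitotic genes over other cells (1.17 in all, mean of both libraries). The ISG median was 1.03 without Cenpf, 1.03 with means of per-cell CPM, 0.94 with median-of-ratios scaling, 1.07 with totals free of mitochondrial, ribosomal protein and haemoglobin genes, 1.06 from 1 CPM and 0.82 from 20 CPM. The p53 median was 0.35 with M of at least 0.5, 0.42 with per-cell means and 0.37 with median-of-ratios scaling. Genes past 1.5-fold numbered 76 higher and 21 lower from 5 CPM, 13 and 3 from 50 CPM, and 1200 and 840 without a filter. The mitotic median was 1.19 over all barcodes, 1.22 without cells of high doublet score, 1.24 with M of at least 0.5, 1.31 with per-cell means and 3.41 over low-score cells, against which median UMIs were 2.04 times as high. The causes were not tested. The remaining alternatives stayed within the counting interval or, for counts, within 1.5 times. Scaling moved the median of all genes by less than 0.03 log2 units. One library per group limits every comparison, as does the boundary against late S.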

Other observations

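Barcodes that the rule left out for having under 2% mitochondrial UMIs gave the M score genes a higher share of their few UMIs than the scored cells did. Such barcodes numbered 412 under the label Usp18+/f and 80 under Usp18+/Δ, with medians of 910.5 and 941 UMIs. Their summed M score genes were at 2734 CPM (2583 to 2891) and 1462 CPM (1239 to 1713), against 1246 and 1044 CPM over scored cells. Cenpf was at 746 and 296 CPM in these barcodes and at 231 and 199 CPM in scored cells, and Aspm at 345 and 172 CPM against 89.7 and 77.7 CPM. Outside the score, Mki67 was at 1770 and 1022 CPM against 540 and 500 CPM, and Top2a at 1020 and 535 CPM against 400.4 and 384 CPM. Cdk1 was at 296 and 76.4 CPM against 148 and 118 CPM, the second of these levels resting on 8 UMIs. Ube2c was at 396 and 239 CPM against 397 and 305 CPM. In the second library Plk1 and Ccnb1 had 5 and 10 UMIs in these barcodes, too few for a direction. The nuclear RNA Malat1 was at 12160 and 15305 CPM against 8347 and 8389 CPM. Barcodes with over 10% mitochondrial UMIs held 557 and 555 CPM of the M score genes.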
